A study of Rattus norvegicus with 84 samples.

Results

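The genes that take up, store, release and recycle iron were followed in the RNA of extracellular vesicles (EVs) from rat brain and plasma after stroke. They comprised 9 of the 18782 annotated genes in the deposited mRNA table: the ferritin subunits Fth1 and Ftl1, the carrier Tf and its receptor Tfrc, the heme-degrading enzyme Hmox1, the exporter Slc40a1, the ferroxidase Cp, the importer Slc11a2 and the ferritinophagy receptor Ncoa4. They were taken by gene symbol and without a cut on measured values, though earlier results of these data were known. All rats were wild-type male Sprague-Dawley rats aged 8 to 12 weeks. Of the 21 rats, 18 underwent transient occlusion of the middle cerebral artery in the right hemisphere for 90 min. On day 3 they received either human neural stem cells (the hNSCs group) or saline (the control group) through the carotid artery. Rats were sacrificed 4, 10 and 31 days poststroke, which was 1, 7 and 28 days after transplantation, and a healthy group completed the 7 groups of 3 rats. EVs came from the ipsilateral hemisphere and from the plasma of the same rats, so the 42 mRNA libraries held 21 per tissue. The grafts were of human origin and the counts were assigned to rat genes.

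Iron circulates in plasma bound to transferrin, which cells take up through the transferrin receptor, and DMT1, the product of Slc11a2, carries it out of the endosome. Inside cells it is held in ferritin, a shell of heavy chains with ferroxidase activity (Fth1) and light chains that favour mineral formation (Ftl1). NCOA4 delivers ferritin to the lysosome for iron release, ferroportin (Slc40a1) exports iron, and ceruloplasmin (Cp) oxidises it on the way out. Heme oxygenase 1 (Hmox1) frees iron from heme, for example from extravasated red cells, and microglia and macrophages that take up debris after stroke are known for high ferritin and heme oxygenase content. The messages of both ferritins and of the transferrin receptor are regulated through iron-responsive elements.

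Levels are given in CPM, a gene's counts scaled to the TMM-corrected total of annotated counts in its library, computed within a tissue, for replicates 1, 2 and 3 of a group in that order. A gene was called changed where the adjusted p of edgeR's quasi-likelihood test was under 0.05 over all annotated genes tested and the change exceeded 1.5-fold. Of the members, 8 passed the filter on low counts in brain, where Slc40a1 did not, and all 9 passed it in plasma. Every library had between 13221461 and 37651652 counts in brain and between 11878367 and 49824782 in plasma. The share of counts on annotated genes ran from 3.18% to 51.9% in brain libraries and from 45.1% to 75.6% in plasma libraries. In brain it was 29.9% to 51.9% at 31 days and 25.3% or less in every other library, with 7.11% to 20.9% in the healthy group. In brain comparisons of 31 days with other groups, time and this share cannot be told apart. Every brain control library at 4 days also had a higher share than every healthy library, every hNSCs library at 4 days and every library at 10 days. Brain differences between the control group at 4 days and those groups therefore cannot be told apart from this share either. The shares of the brain control group at 10 days lay within the healthy range. The shallowest brain library, replicate 3 of the hNSCs group at 10 days, held 569136 annotated counts, and Ncoa4, Cp and Slc11a2 were at 0 in it. Replicate 2 of the brain control group at 10 days stood apart in the opposite way, with the highest level of Fth1, Ftl1, Hmox1, Cp and Slc40a1 among the 21 brain libraries. The differences of Fth1, Ftl1, Hmox1 and Cp that it enters are given with and without it, and the medians and counts over the members include it unless stated. Summed markers of neurons, astrocytes and oligodendrocytes were above 0 in every brain library. In plasma the summed level of 5 neuronal markers was between 0 and 19.0 CPM, against 944 to 4664 CPM in brain. In bulk EV RNA, fewer vesicles from a cell type and less RNA per vesicle cannot be told apart.

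In healthy rats Fth1 had the highest level of the 9 genes in both tissues' EVs, and Ftl1 came next in plasma but not in brain. On the scale that corrects for gene length, the FPKM, Fth1 in healthy brain EVs had a level of 16.9 ± 6.63 (SD, n = 3). The level of Tf was 1.40 ± 0.753 and that of Ftl1 1.23 ± 0.577, which lie within each other's spread, and the other members were at or below 0.253. In healthy plasma EVs the FPKM of Fth1 was 2610.2 ± 1159.7, followed by Ftl1 at 616 ± 324, Tf at 104 ± 23.2 and Ncoa4 at 34.0 ± 15.3. Hmox1 (10.2 ± 10.5), Slc40a1 (9.73 ± 8.53) and Cp (5.71 ± 1.22) came next with overlapping spreads, and Tfrc (0.692 ± 0.366) and Slc11a2 (0.0975) were the lowest. FPKM ranks genes within a tissue here and is not compared between tissues. Its sum over annotated genes was 4251 to 11922 in healthy brain libraries and 133459 to 254538 in healthy plasma libraries.

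Set against plasma EVs in one fit of the 6 healthy libraries, brain EVs held less of 7 of the 9 members, among them both ferritins. Ftl1 was 65.8-fold lower in brain, at 38.9 ± 11.7 CPM against 2556 ± 382 CPM in this joint scaling (log2 difference -6.04, SE 0.48, edgeR adjusted p = 0.000871). Fth1 was 26.1-fold lower, Ncoa4 18.9-fold and Tf 11.7-fold, with edgeR adjusted p = 0.00422, 0.00111 and 0.00252. When the fit paired the tissues of each rat, the edgeR adjusted p was 0.0279 for Fth1 and 0.0199 for Ftl1, Ncoa4 and Tf. Hmox1 (40.0-fold) and Cp (18.2-fold) were also called lower, with edgeR adjusted p = 0.0190 and 0.0337, but not when the fit paired the tissues of each rat (adjusted p = 0.0550 and 0.0529). Slc40a1 had no count in any healthy brain library and 6540 counts in plasma, so it was at least 324-fold lower in brain, taking 3 counts over the 3 libraries as the floor, and at least 172-fold lower without replicate 2 of the healthy plasma group. Without that plasma library Fth1 differed by -3.72 and Cp by -3.56 on the log2 scale, against -4.71 and -4.18 with it. Without any 1 library the differences ran from -4.98 to -3.72 for Fth1, -5.77 to -4.34 for Hmox1 and -5.19 to -3.56 for Cp. The Hmox1 call was lost without brain replicate 2 or plasma replicate 1, and the Cp call without brain replicate 2, brain replicate 3 or plasma replicate 2. The transferrin receptor gene was the exception, with every healthy brain library (38.3 to 48.3 CPM within brain) above every plasma library (9.77 to 13.7 CPM within plasma), though it was not called (log2 difference 1.30, SE 0.50, edgeR adjusted p = 0.0882). Slc11a2 overlapped between the tissues. Across all 13771 genes tested, 34.5% were called in either direction, and the median log2 difference was -4.24 over the members and -0.29 over all genes.

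After stroke without a graft, every brain control library lay above every healthy brain library for Fth1, Ftl1 and Cp at 4, 10 and 31 days, and for Hmox1 at 4 and 31 days. The 2 ferritin genes were called higher at 10 days, a call that was lost without replicate 2 of the control group or without any 1 of the 3 healthy libraries, and at 4 and 31 days no member was called by edgeR (the counts by other tools are given with the totals). The 3 comparisons share the same 3 healthy libraries.

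**Figure D1:**
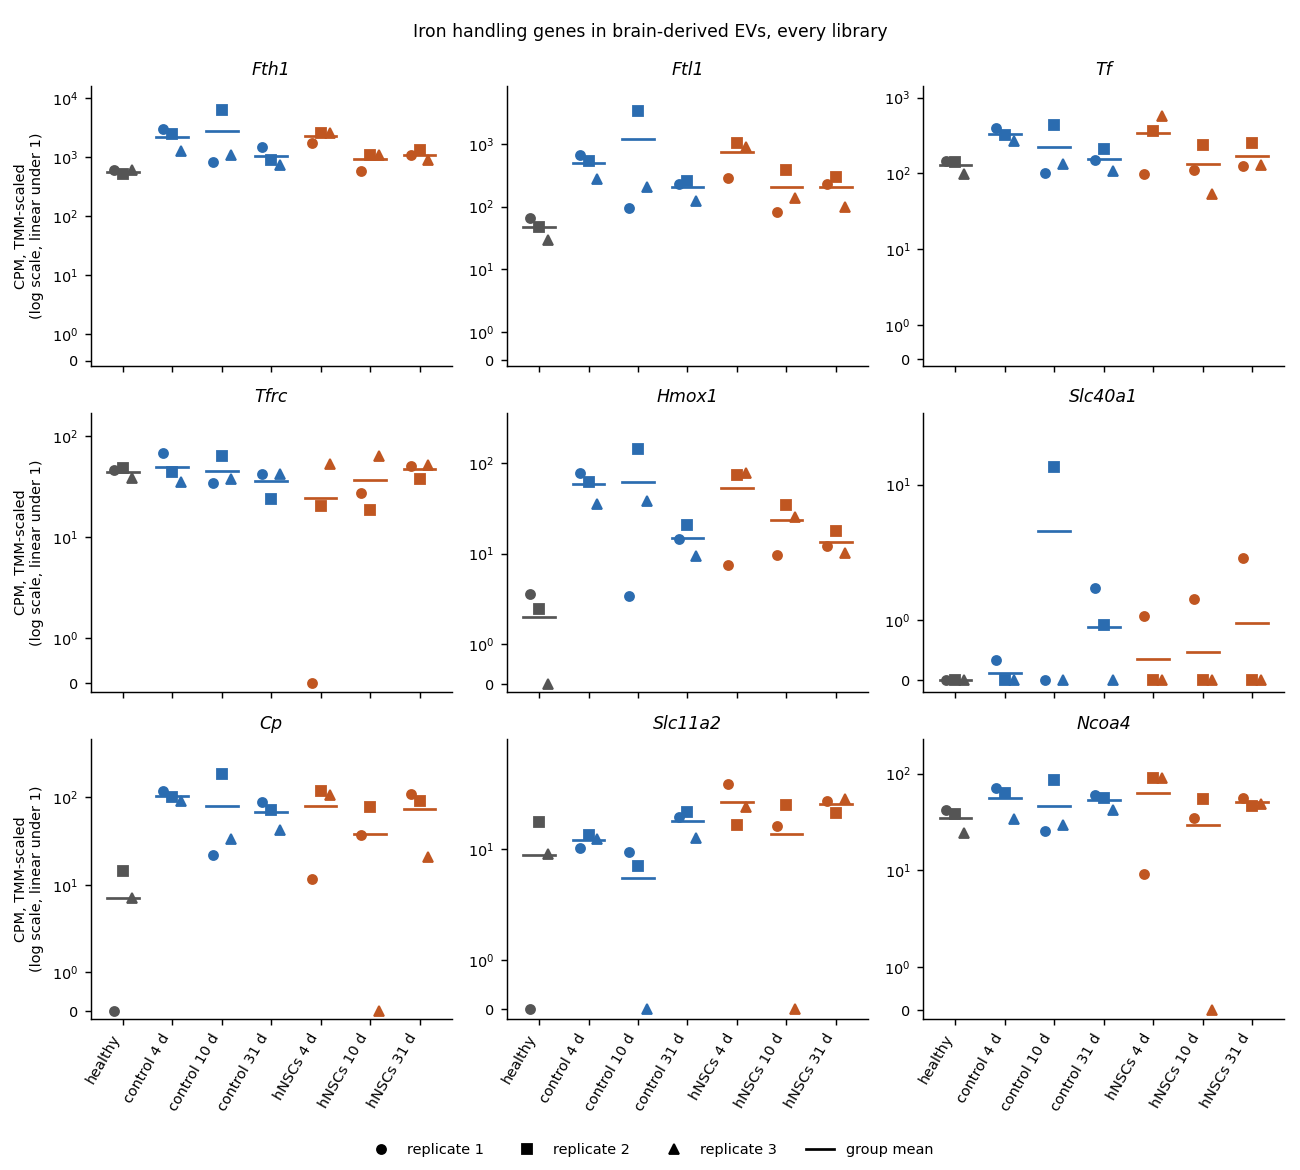
Levels of the 9 iron genes in brain-derived EVs, in TMM-scaled CPM on a symmetric log axis, for the 7 groups. Each point is 1 library with its shape giving the replicate number, and the bar is the group mean (n = 3). Healthy is grey, control blue and hNSCs orange. The 3 healthy libraries lie below every control library at each time for Ftl1 and Fth1, and replicate 2 of the control group at 10 days is the highest point for Fth1, Ftl1 and Hmox1.

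Ftl1, the light chain, stood at 66.1, 47.0 and 29.8 CPM in the healthy group. In the control group it was 670.0, 528 and 279.6 CPM at 4 days, 96.7, 3312 and 207 CPM at 10 days, and 229, 259 and 123 CPM at 31 days. Every control library lay above every healthy one. The fitted difference from the healthy group was 10.4-fold at 4 days (log2 3.38, SE 0.89, edgeR adjusted p = 0.0701), log2 4.68 at 10 days (SE 0.94, edgeR adjusted p = 0.0254, called) and log2 2.11 at 31 days (SE 0.85, edgeR adjusted p = 0.562). Without replicate 2 of the control group at 10 days, the difference at that time was log2 1.70 with an edgeR adjusted p of 0.640.

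For Fth1, the heavy chain, the healthy libraries lay close together at 597, 517 and 596 CPM. The control libraries read 2958, 2483 and 1261 CPM at 4 days, 844, 6363 and 1108 CPM at 10 days, and 1461, 910.2 and 729.7 CPM at 31 days. Here too none of the 9 control libraries fell within the healthy range. The log2 differences from the healthy group were 1.97 at 4 days (SE 0.51, edgeR adjusted p = 0.0653), 2.28 at 10 days (SE 0.52, edgeR adjusted p = 0.0460, called) and 0.86 at 31 days. Without the same library the difference at 10 days was 0.79, with an edgeR adjusted p of 0.688. Between 31 and 4 days the control group differed by -1.11 in Fth1, with an unadjusted p of 0.0354 in edgeR's fit and an adjusted p of 0.441.

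Hmox1, which releases iron from heme, was near the detection limit in healthy brain EVs, at 3.59, 2.44 and 0 CPM. The control values were 78.6, 61.0 and 35.7 CPM at 4 days, 3.41, 144 and 38.6 CPM at 10 days, and 14.5, 20.5 and 9.30 CPM at 31 days. At 4 and 31 days the groups did not overlap, whereas at 10 days replicate 1 lay within the healthy range. The log2 difference of 4.94 at 4 days (SE 1.25) had an edgeR adjusted p of 0.0594, that of 5.02 at 10 days 0.0718 and that of 2.96 at 31 days 0.558. Without replicate 2 of the control group the difference at 10 days was 3.47, with an edgeR adjusted p of 0.640.

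Cp, the ferroxidase that astrocytes are known to carry on their surface, read 0, 14.4 and 7.03 CPM in the healthy group. It was 118, 101 and 90.5 CPM at 4 days, 21.7, 184 and 33.9 CPM at 10 days and 89.7, 72.1 and 42.7 CPM at 31 days in the control group, with no overlap at any time. The log2 differences were 3.76, 3.39 and 3.16, and their edgeR adjusted p 0.109, 0.202 and 0.526, and without replicate 2 of the control group the difference at 10 days was 1.88 (edgeR adjusted p = 0.787). Tf, which oligodendrocytes and choroid plexus make in brain, was 147, 141 and 97.6 CPM in healthy EVs and 400.5, 322 and 270.2 CPM in the control group at 4 days (log2 difference 1.37, SE 0.56, edgeR adjusted p = 0.237). At 10 days (102, 432 and 134 CPM) and 31 days (149, 210.5 and 109 CPM) its control values overlapped the healthy ones.

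For the genes of iron uptake, export and ferritin turnover the groups overlapped. Tfrc lay between 38.3 and 48.3 CPM in the healthy group and between 24.2 and 68.0 CPM in the 9 control libraries. Ncoa4, at 24.2 to 42.4 CPM in healthy EVs, was 70.6, 62.8 and 33.8 CPM in control at 4 days and 25.6, 85.3 and 29.3 CPM at 10 days, so the groups overlapped. At 31 days its control values of 59.9, 56.5 and 42.3 CPM also overlapped the healthy range. Slc11a2 was between 0 and 17.7 CPM in healthy and between 0 and 21.8 CPM in control EVs. Slc40a1 was at 0 in 14 of the 21 brain libraries, and its highest level, 13.5 CPM, was in replicate 2 of the control group at 10 days.

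At 4 days edgeR called 0 of the 8 members tested. At an unadjusted p under 0.05 were 5 members, all higher in the control group, and 14.8% of all genes. DESeq2 called 4 members and 888 genes, and limma 4 members and 567 genes. Over all 14515 genes tested, 0.861% were called at 4 days, and 13.9% had every control library above every healthy one, as 5 of the members did. At 10 days 2 of 8 members were called against 0.572% of all genes. Those at an unadjusted p under 0.05 were 4 members and 12.7% of genes. DESeq2 called 4 members and 640 genes, and limma 0 of either. The control group lay entirely above the healthy group for 3 members at that time and for 7.05% of genes. At 31 days edgeR called 0 members and 0.00689% of genes, and 3 members and 7.14% of genes were at an unadjusted p under 0.05. DESeq2 called 0 members and 179 genes, and limma 4 members and 4170 genes. At that time 4 members and 18.9% of genes did not overlap, with control higher. The median log2 differences of the members were 1.67, 1.54 and 0.92 at 4, 10 and 31 days, against 0.05, 0.00 and 0.24 over all genes.

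A fit of all 3 control groups together against the healthy group, added after the values were seen, gave log2 differences of 3.39 for Ftl1, 1.70 for Fth1, 4.31 for Hmox1 and 3.44 for Cp. None was called by edgeR (adjusted p = 0.0679, 0.0945, 0.0975 and 0.132). Those at an unadjusted p under 0.05 were 4 members and 12.3% of all genes. DESeq2 called 4 members and 732 genes, and limma 4 members and 1771 genes. Without replicate 2 of the control group at 10 days the differences were 2.40, 1.20, 3.79 and 2.93, with edgeR adjusted p = 0.0521, 0.0561, 0.156 and 0.215. Of all genes, 0.186% were called with all libraries in. Between time points within the control group, likewise added, edgeR called 0 members and 0% of genes for 10 against 4 days, with 0 members at an unadjusted p under 0.05 and none by DESeq2 or limma. For 31 against 4 days it called 0 members and 0.248% of genes, and no member was called by DESeq2 or limma. Fth1 alone of the members, and 9.5% of genes, were at an unadjusted p under 0.05.

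The balance of the ferritin subunits in brain control EVs also differed from that in healthy rats. The ratio of Ftl1 to Fth1 counts within a library, which does not depend on library scaling, was 0.111, 0.0908 and 0.05 in healthy brain EVs. It was 0.227, 0.213 and 0.222 in the control group at 4 days, 0.115, 0.521 and 0.187 at 10 days, and 0.157, 0.284 and 0.169 at 31 days. In the brain hNSCs group, which did not enter the test, the ratio ran from 0.111 to 0.391. Its lowest library, replicate 3 at 31 days (0.1109), lay next to the highest healthy one (0.1107). All 9 control libraries exceeded all 3 healthy ones, and the mean log2 ratio was 1.42 higher (p = 0.00455 in an exact permutation test, two-sided, which is the smallest value that 220 arrangements can give). Leaving out 1 library at a time kept the difference between 1.09 and 1.66. Each time point alone could not go below p = 0.1 with 3 against 3 rats, and each reached that value in the exact permutation test (log2 differences of 1.47, 1.49 and 1.30). In plasma EVs the ratio ran from 0.0807 to 0.476 and the control group was -0.08 from the healthy group on the log2 scale (two-sided exact permutation test, p = 0.905). The comparison was added after the values were seen, and ferritin genes have near-identical processed copies in the genome, so reads could be shared with copies that the table does not list.

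**Figure D2:**
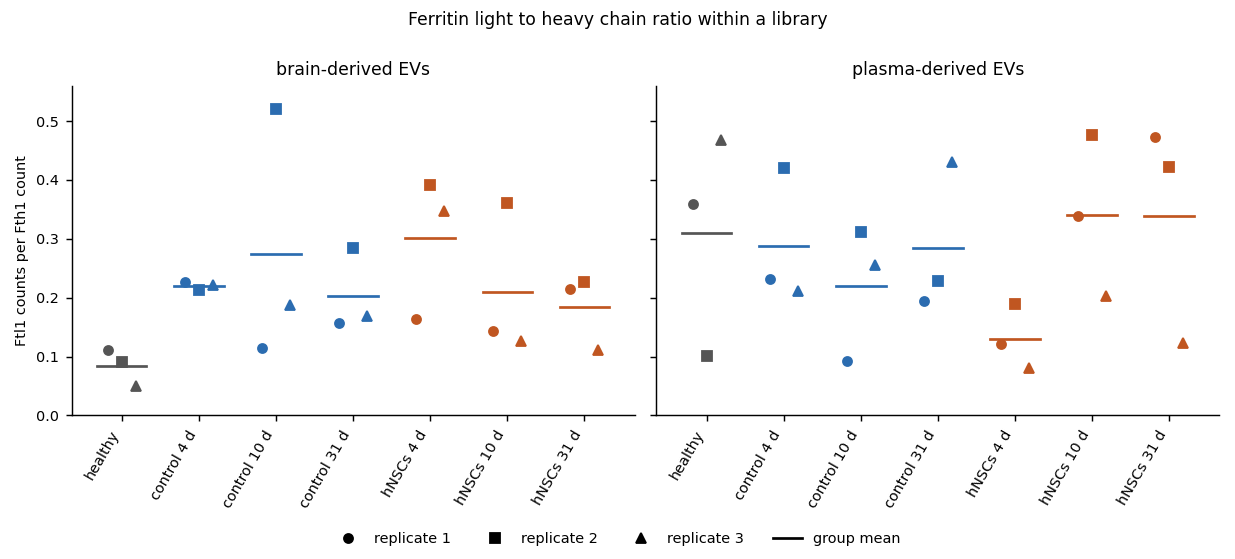
Ratio of Ftl1 to Fth1 counts in each library (linear axis from 0), for brain-derived and plasma-derived EVs and the 7 groups. Points are libraries and bars are group means (n = 3). In brain the healthy libraries lie between 0.05 and 0.111 and the control libraries between 0.115 and 0.521.

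Between the hNSCs and control groups no member was called in brain at any time, and the levels of both ferritins overlapped. At 4 days 1 of the other members had every hNSCs library above every control one, as did 2.62% of all genes. At 10 and 31 days 0 members did so, against 1.61% and 3.29% of genes. The comparisons of hNSCs with control at a time point use the control libraries already set against the healthy group. Ftl1 in the hNSCs group was 291, 1017 and 899.7 CPM at 4 days, 82.7, 390.5 and 137 CPM at 10 days, and 231, 297 and 97.7 CPM at 31 days. Fth1 was 1772, 2603 and 2592 CPM at 4 days, 580.3, 1084 and 1084 CPM at 10 days, and 1074, 1312 and 881 CPM at 31 days. The hNSCs values lay within or around the control range at every time.

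The largest differences from control were at 10 days, at -2.57 for Ftl1 (SE 0.85, edgeR adjusted p = 0.308) and -1.60 for Fth1 (SE 0.50, edgeR adjusted p = 0.285). Without replicate 2 of the control group at 10 days the Ftl1 difference turned to 0.42 and that of Fth1 was -0.10. Hmox1 in the hNSCs group read 7.51, 74.5 and 77.1 CPM at 4 days, 9.59, 34.6 and 25.6 CPM at 10 days, and 12.1, 17.6 and 10.2 CPM at 31 days. Cp was 11.8, 119 and 108 CPM, then 36.9, 78.1 and 0 CPM, then 111, 90.0 and 20.9 CPM. In replicate 1 of the hNSCs group at 4 days, Hmox1, Cp, Ncoa4 (9.12 CPM, against 89.6 and 89.9) and Tfrc (0 CPM, against 20.2 and 52.8) were all below the other libraries of that group.

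EdgeR called 0 members and 0% of all genes in brain for hNSCs against control at 4, 10 and 31 days. At an unadjusted p under 0.05 there were 0, 2 and 0 members, both at 10 days lower in the hNSCs group. Over all genes 7.53%, 13.4% and 0.0896% were under that p. DESeq2 called 0, 1 and 0 members and 241, 714 and 1 genes, and limma none of either. The members' median log2 difference was 0.06, -0.88 and 0.09, against -0.12, -0.34 and 0.00 over all genes. Whether the difference between hNSCs and control itself changed between time points was tested in the same fit. No member and 0% of genes were called in brain for 10 against 4, 31 against 4 or 31 against 10 days. At an unadjusted p under 0.05 Ftl1 (-3.15) and Fth1 (-1.65) were lower for 10 against 4 days. There were 0 such members for 31 against 4 days and 2, both higher, for 31 against 10 days. DESeq2 called 0 members in each. Over all genes 8.63%, 4.23% and 6.23% were at an unadjusted p under 0.05, and DESeq2 called 440, 112 and 232 genes. Without replicate 2 of the control group at 10 days, the differences for 10 against 4 days were -0.16 for both genes, and those for 31 against 10 days were -0.39 for Ftl1 and 0.17 for Fth1.

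**Figure D3:**
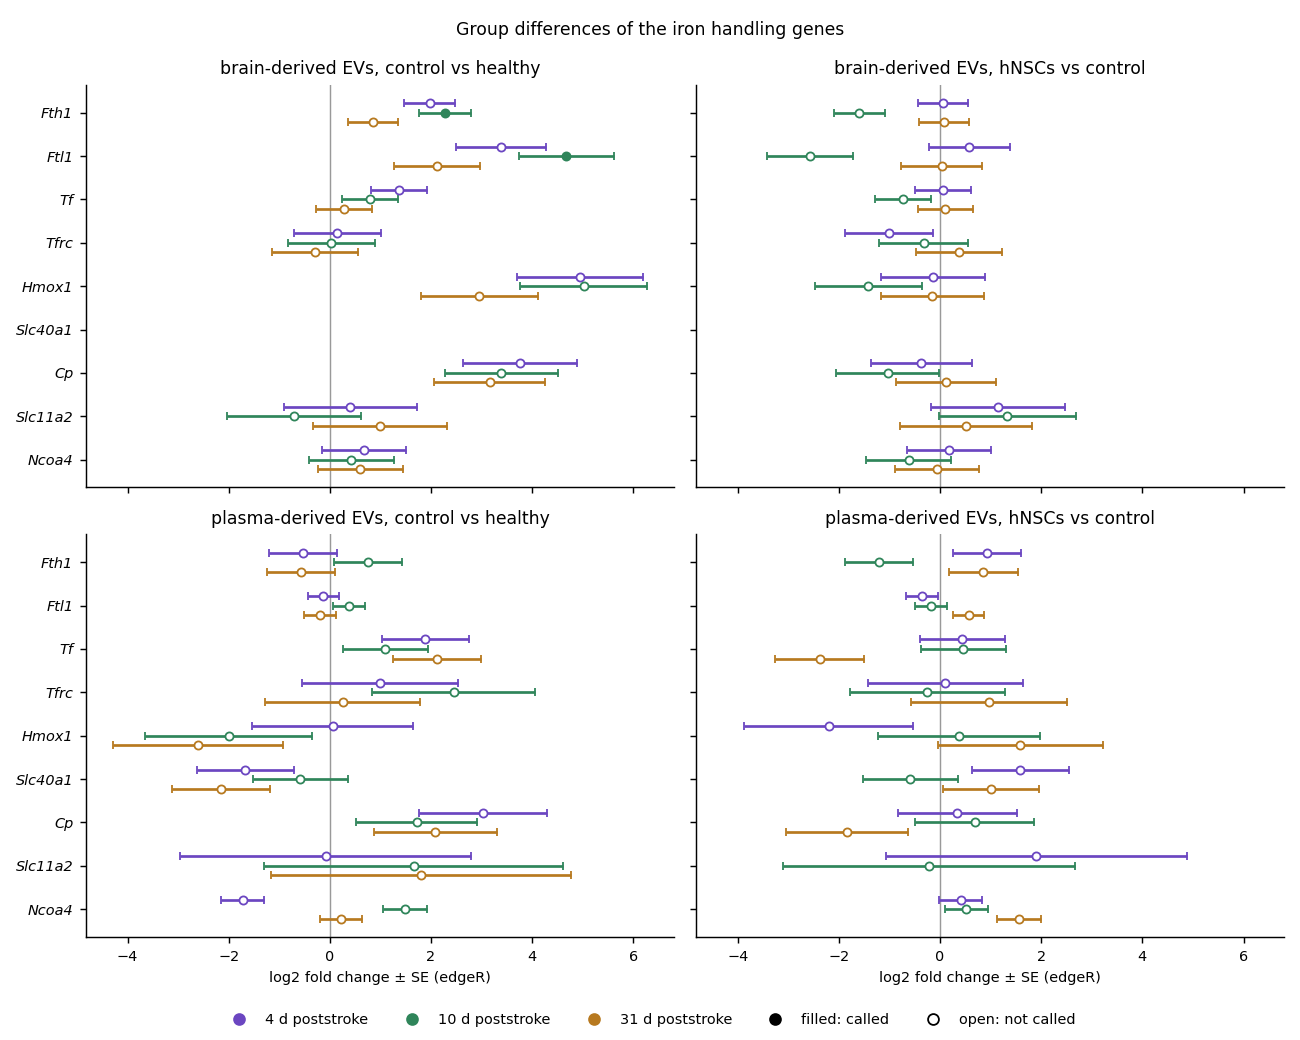
Log2 differences with standard errors for each member in brain-derived and plasma-derived EVs, for control against healthy and hNSCs against control at 4, 10 and 31 days (edgeR, 3 rats a group). Filled points are called, and genes not tested or at 0 in all libraries of a group are left out. The filled points are Fth1 and Ftl1 in brain control EVs at 10 days, at 2.28 and 4.68.

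Brain levels of the ferritins and Hmox1 moved with the summed markers of 5 of the 11 cell type lists: microglia and macrophages, monocytes and neutrophils, oligodendrocytes and astrocytes upward and neurons downward. The summed level of 8 markers of microglia and macrophages, all of them in the table, was 60.2 to 79.3 CPM in healthy brain EVs, where Tyrobp was at 0. It was 411 to 962 CPM in the control group at 4 days, 159 to 1795 CPM at 10 days and 188 to 349 CPM at 31 days, and the 1795 CPM were in replicate 2 at 10 days. The same library had the lowest neuronal sum, 944 CPM, against 3500 to 4365 CPM in healthy brain EVs and 1524 to 2659 CPM in the control group at 4 days. The sum of 5 astrocyte markers was 1129 to 1281 CPM in healthy EVs and 3297 to 3538 CPM in control EVs at 4 days. Of the 6 markers of monocytes and neutrophils, Cd14, S100a8, S100a9 and Fcgr3a were at 0 in every healthy brain library. Their sum there came from Lyz2 and Itgam alone. S100a8, S100a9 and Fcgr3a were also at 0 in every brain control library at 10 days. Across the 21 brain libraries, log2 levels of Ftl1 and of the microglia and macrophage sum correlated with Pearson r = 0.91 and Spearman rho = 0.92 (permutation p = 1e-05 for each, the smallest that 100000 permutations can give, adjusted p = 0.00014 for r over 187 relations of members with marker lists in both tissues). Without the 2 libraries farthest from the median marker level r was 0.91, and after subtracting group means 0.87. For Fth1 and Hmox1 with the same sum r was 0.85 and 0.89 (rho 0.88 and 0.88, permutation p = 1e-05 for each, adjusted p = 0.00014), 0.82 and 0.87 without 2 libraries, and 0.76 for each after subtracting group means. With the neuronal sum r was -0.86 for Ftl1 and -0.85 for Fth1 (rho -0.83 and -0.82, adjusted permutation p = 0.00014 and 0.00025), and -0.80 and -0.79 without 2 libraries. The sum of monocyte and neutrophil markers gave r = 0.88 for Ftl1, 0.82 for Fth1 and 0.87 for Hmox1 (rho 0.90, 0.80 and 0.89, adjusted permutation p = 0.00014 for each), 0.89, 0.79 and 0.86 without 2 libraries and 0.78, 0.65 and 0.69 after subtracting group means. The oligodendrocyte sum was also highest in replicate 2 of the control group at 10 days, at 12500 CPM against 1800 to 6337 CPM in the other 20 brain libraries. With it r was 0.68 for Ftl1, 0.72 for Fth1 and 0.64 for Hmox1 (rho 0.62, 0.62 and 0.67, adjusted permutation p = 0.0062, 0.0026 and 0.0115), 0.46, 0.48 and 0.49 without 2 libraries, and 0.92, 0.91 and 0.79 after subtracting group means, above the values for microglia and macrophages on that last scale. The astrocyte sum gave r = 0.71, 0.58 and 0.69 (rho 0.64, 0.55 and 0.48, adjusted permutation p = 0.0021, 0.029 and 0.0038), and 0.59, 0.47 and 0.52 without 2 libraries. Tf and Cp also moved with the microglia and macrophage sum in brain (r = 0.64 and 0.62, adjusted permutation p = 0.0122 and 0.0157). With the monocyte and neutrophil sum their r was 0.78 and 0.69, and with the neuronal sum -0.65 and -0.57 (adjusted permutation p under 0.05 for each). Of the 187 relations, 44 had an adjusted permutation p under 0.05, and the share among all genes was not computed. Marker sums and members come from the same libraries, and the part of the markers in the differences between groups was not tested.

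**Figure D4:**
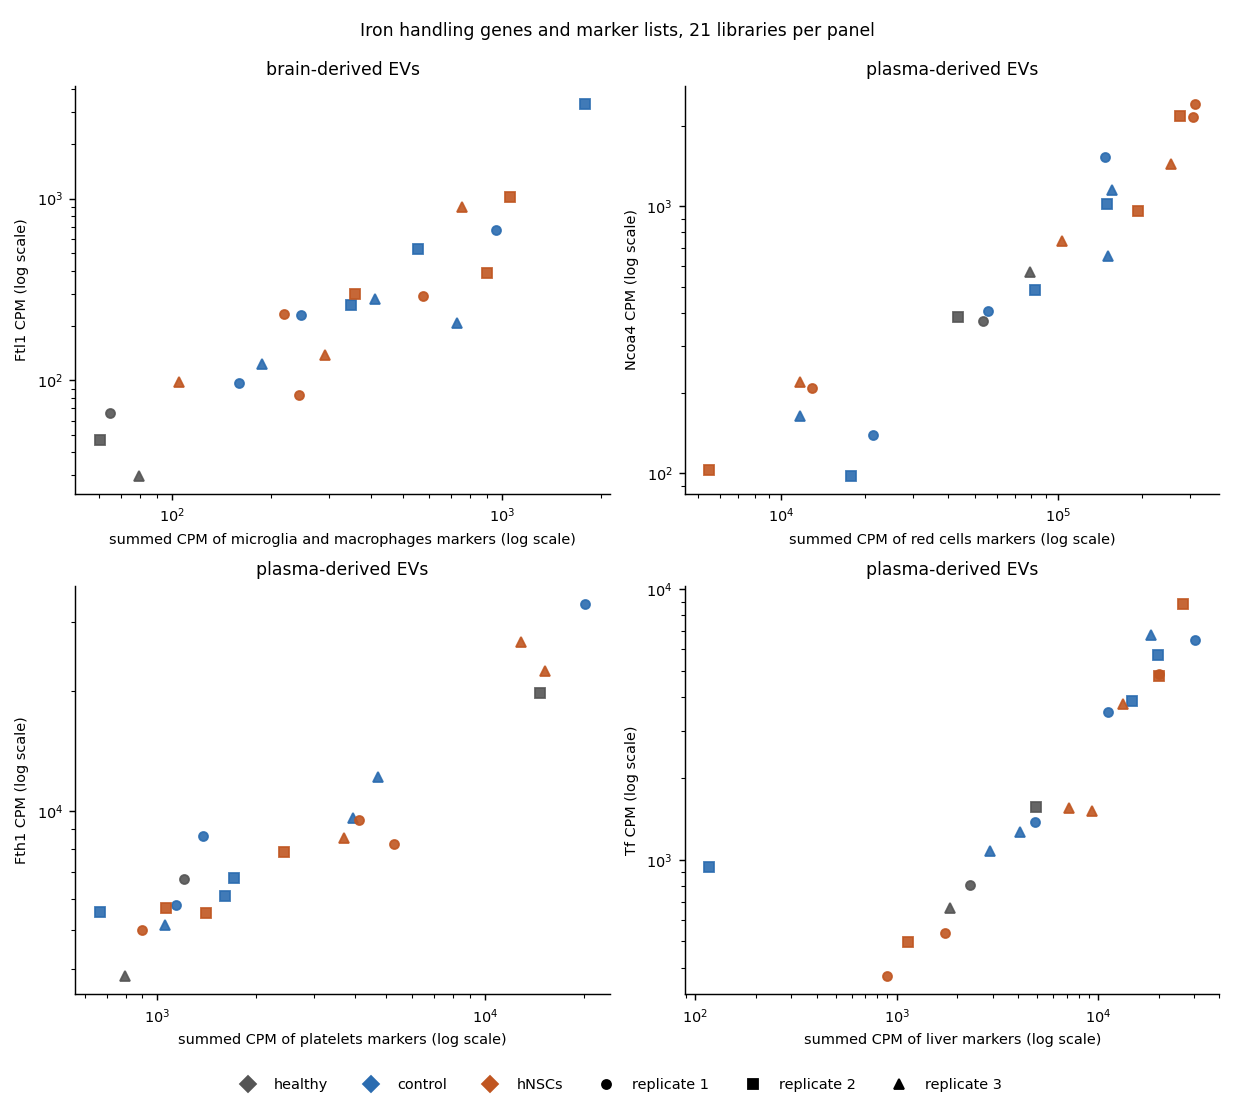
Levels of Ftl1 in brain against the summed microglia and macrophage markers, and in plasma of Ncoa4 against red cell markers, Fth1 against platelet markers and Tf against liver markers, in CPM on log axes, 1 point per library coloured by group (21 per panel). Ftl1 and Ncoa4 rise along their marker sums, and the highest Fth1 levels in plasma are in the 4 libraries with platelet sums of 12831 CPM or more.

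In plasma EVs the member called between time points was Ncoa4, the receptor that hands ferritin to autophagosomes and is abundant in maturing red cells. It stood at 373, 386 and 568 CPM in the healthy group and at 139, 98.1 and 164 CPM in the control group at 4 days, all lower. At 10 days the control values were 1535, 1024 and 1154 CPM, all higher than healthy, and at 31 days 407, 484 and 653 CPM, which overlapped the healthy values. The log2 differences from the healthy group were -1.73 (SE 0.43, edgeR adjusted p = 0.274), 1.48 (SE 0.43, edgeR adjusted p = 0.686) and 0.22, so none was called. Of all genes tested in plasma, 3.64% had every control library above every healthy one at 10 days. The share of genes with the control group entirely lower was not counted at any time. Between 10 and 4 days, a comparison added after the values were seen, Ncoa4 rose by 3.21 on the log2 scale (SE 0.46, edgeR adjusted p = 0.00117) and was called, by DESeq2 and limma also. With each of the 6 libraries left out in turn the value lay between 3.03 and 3.38 and was called each time. Between 31 and 4 days the difference was 1.95 (SE 0.44, edgeR adjusted p = 0.110).

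In the hNSCs group plasma Ncoa4 was 209, 103 and 220.3 CPM at 4 days, 2413, 2174 and 740.1 CPM at 10 days, and 2162, 958 and 1440.4 CPM at 31 days. At 31 days all 3 values lay above the control values, with a log2 difference of 1.56 (SE 0.43, edgeR adjusted p = 0.407). Every hNSCs library lay above every control one then for 2 members, Ncoa4 and Ftl1, and for 4.6% of all genes. The summed level of 7 red cell markers, hemoglobin genes among them, was also lowest at 4 days. It was 43469 to 79187 CPM in healthy plasma EVs, 11678 to 21458 CPM in control at 4 days, 146991 to 156235 CPM at 10 days and 55828 to 151494 CPM at 31 days. In the hNSCs group it was 5500 to 12881, 103312 to 312006 and 194655 to 306215 CPM. Over the 21 plasma libraries Ncoa4 and this sum correlated with r = 0.95 and rho = 0.94 (permutation p = 1e-05 for each, adjusted p = 0.00014), r = 0.94 without 2 libraries and r = 0.79 after subtracting group means. With hemoglobin genes left out of the fit, the Ncoa4 difference between 10 and 4 days was 3.15. The part of red cell RNA in it was not tested.

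**Figure D5:**
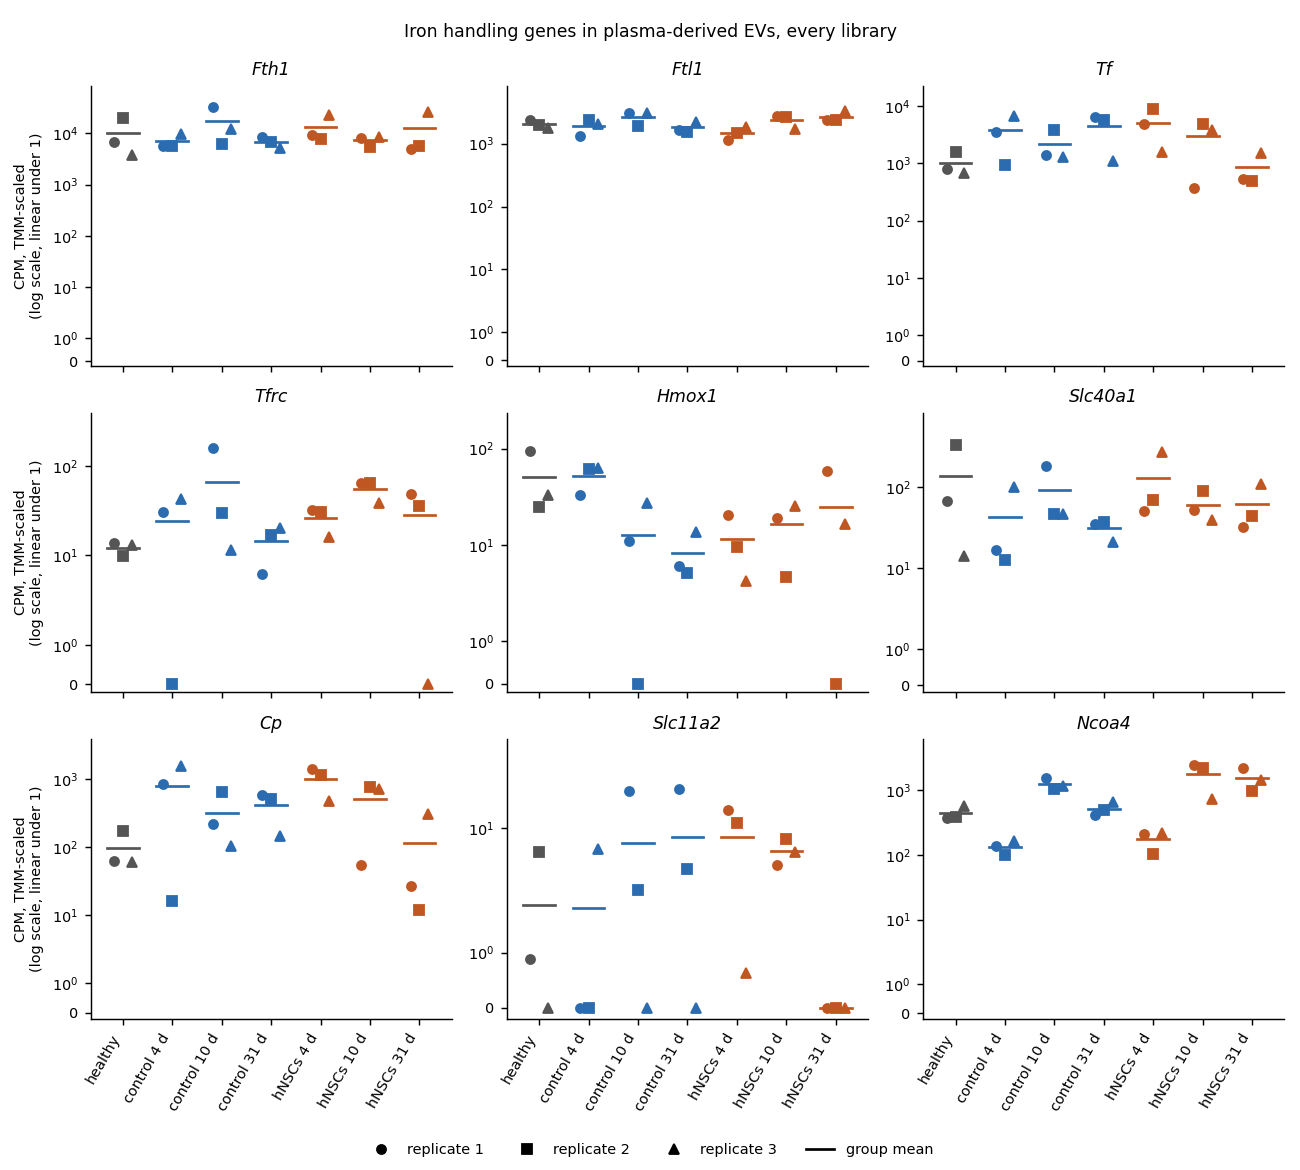
Levels of the 9 iron genes in plasma-derived EVs, in TMM-scaled CPM on a symmetric log axis, for the 7 groups, with 1 point per library, shapes for replicate numbers and bars for group means (n = 3). Healthy is grey, control blue and hNSCs orange. Ncoa4 is lower at 4 days than at 10 days in every control and hNSCs library, and the spread within groups is wide for Fth1, Slc40a1, Tf and Cp.

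Neither ferritin was called in plasma. Ftl1 was 2421, 2001 and 1797 CPM in the healthy group, and all 18 libraries of stroke rats lay between 1144 and 3277 CPM. At 31 days the 3 hNSCs values (2372, 2405 and 3277 CPM) were above the control values (1674, 1548 and 2219.5 CPM), with a log2 difference of 0.57 and an unadjusted p of 0.0850 in edgeR's fit. Fth1 varied widely within groups, with 6741, 19775 and 3842 CPM in the healthy group and 33156, 6093 and 12184 CPM in control at 10 days. Its highest levels, 33156, 26579.7, 22557 and 19775 CPM, were in the 4 libraries in which 5 platelet markers summed to 12831 CPM or more, against 5286 CPM or less in the other 17. Because the libraries fall into these clusters no pooled correlation is given. Over the other 17 libraries r between Fth1 and the platelet sum was 0.86.

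Ferroportin RNA showed the same spread, at 67.6, 334 and 14.1 CPM in healthy plasma EVs and 16.9, 12.8 and 101 CPM in control EVs at 4 days. At 10 days Slc40a1 was 182, 46.7 and 47.2 CPM and at 31 days 35.01, 37.5 and 21.1 CPM (log2 difference from healthy -2.15 at 31 days, unadjusted p = 0.0394 in edgeR's fit). That difference was -0.39 (unadjusted p = 0.675 in edgeR's fit) without replicate 2 of the healthy group, the library with 334 CPM. In the hNSCs group it ran from 32.3 to 271 CPM. Over the 17 libraries with the lower platelet sums, r between Slc40a1 and that sum was 0.60.

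Tf and Cp, both secreted by the liver into plasma, were high and low in the same libraries. Tf was 807, 1565 and 663 CPM in the healthy group and 3531, 945 and 6759.9 CPM in control at 4 days, 1385, 3847 and 1266 CPM at 10 days and 6465, 5691 and 1076 CPM at 31 days. Cp read 62.7, 171 and 60.02 CPM in the healthy group, then 840.1, 16.1 and 1534 CPM, 220.2, 640.4 and 103 CPM, and 592, 509 and 147 CPM in control. At 31 days Tf was 535, 498 and 1517 CPM in the hNSCs group, with a log2 difference from control of -2.38 (SE 0.88, edgeR adjusted p = 0.522). The summed level of 6 liver markers, which ran from 118 to 30315 CPM over the plasma libraries, correlated with Tf at r = 0.85 and rho = 0.96 and with Cp at r = 0.91 and rho = 0.91 (permutation p = 1e-05 for each, adjusted p = 0.00014 for each r). Without 2 libraries r was 0.98 and 0.94, and after subtracting group means 0.90 and 0.97. The lowest liver sum, 118 CPM, was in replicate 2 of the control group at 4 days, where Cp was 16.1 CPM.

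Hmox1 in plasma was 94.0, 24.7 and 32.7 CPM in the healthy group. It was 32.9, 62.0 and 62.1 CPM in control at 4 days, 11.0, 0 and 27.0 CPM at 10 days and 6.08, 5.08 and 13.7 CPM at 31 days, the last below every healthy library (log2 difference -2.61, unadjusted p = 0.138 in edgeR's fit). Tfrc was 13.7, 9.77 and 13.1 CPM in healthy plasma EVs and ranged from 0 to 158 CPM in those of stroke rats. Slc11a2 was the lowest of the 9, at 0 in 8 of 21 plasma libraries including all 3 of the hNSCs group at 31 days, and at most 20.6 CPM.

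For control against healthy in plasma, edgeR called 0 of 9 members at 4, 10 and 31 days, and 0.0679%, 0% and 0% of the 14720 genes tested. Members at an unadjusted p under 0.05 were 3 at 4 days (Tf and Cp higher, Ncoa4 lower), 1 at 10 days (Ncoa4 higher) and 2 at 31 days (Tf higher and Slc40a1 lower, the size of the latter resting on replicate 2 of the healthy group). Over all genes 5.86%, 5.6% and 4.75% were at an unadjusted p under 0.05. DESeq2 called 1, 1 and 0 members and 930, 1241 and 682 genes, and limma no member. The median log2 difference was -0.09, 1.10 and 0.22 over the members, against -0.12, -0.22 and -0.09 over all genes. With all control groups together edgeR called 0 members and 0% of genes. Those at an unadjusted p under 0.05 were 1 member and 9.61% of genes. DESeq2 called 0 members and 947 genes, and limma none of either. Between 10 and 4 days Ncoa4 was the 1 member called, against 0.387% of all genes. DESeq2 and limma also called it, among 1519 and 76 genes. For 31 against 4 days edgeR called 0 members and 0.17% of genes. There 1 member and 4.56% of genes were at an unadjusted p under 0.05. DESeq2 called 1 member and 958 genes, and limma 0 members and 29 genes.

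For hNSCs against control in plasma, 0 members were called by edgeR at 4, 10 and 31 days, against 0.00679%, 0% and 0% of genes. At an unadjusted p under 0.05 there were 0, 0 and 3 members, and at 31 days these were Ncoa4 (higher), Tf and Slc11a2 (lower), the last against a group at 0. Over all genes 3.94%, 4.06% and 8.57% were at an unadjusted p under 0.05. DESeq2 called 0, 0 and 3 members and 958, 1182 and 1684 genes, and limma none of either. For the change of that difference between time points, edgeR called 0 members in each test and 0.00679%, 0.00679% and 0% of genes for 10 against 4, 31 against 4 and 31 against 10 days. At an unadjusted p under 0.05 there were 1, 3 and 3 members and 5.69%, 9.96% and 12.1% of genes. DESeq2 called 0, 1 and 1 members, the last 2 being Slc11a2, and 1145, 1842 and 2014 genes.

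Whether the plasma level of an iron gene follows its brain level was asked over the 21 rats, each of which gave both libraries. For the 8 members tested in both tissues, Pearson r of log2 CPM ran from -0.34 for Ftl1 (rho -0.39, permutation p = 0.130 and 0.0848) to 0.28 for Tf (rho 0.33, permutation p = 0.225 and 0.152), with a median of -0.13 against -0.01 over 12885 genes. No member was called and none had an unadjusted permutation p under 0.05 (adjusted p = 0.997 for each of the 8), and of all genes 0% were called and 4.6% had an unadjusted p under 0.05. Without the 2 rats farthest from the median brain level r was -0.48 for Ftl1 and 0.29 for Tf. After subtracting group means, r was -0.48 for Fth1 (permutation p = 0.0261) and -0.44 for Hmox1 (permutation p = 0.0455), neither corrected for the 8 members. Over the 12 healthy and control rats alone, r was 0.52 for Tf (permutation p = 0.0845) and 0.50 for Cp (permutation p = 0.0958), against 0.28 and 0.07 over all 21 rats.

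The other genes of the pathway were read from a list of 48, of which 37 were tested in brain and 44 in plasma. In brain edgeR called none of them in any comparison. For control against healthy, 5 were higher and 1 lower at an unadjusted p under 0.05 at 4 days, 1 and 3 at 10 days, and 2 and 1 at 31 days. Their median log2 differences were 0.11, 0.21 and 0.66, and 14.8%, 12.7% and 7.14% of all genes were at an unadjusted p under 0.05. At 4 days Steap4 had the largest fitted difference (7.37, edgeR adjusted p = 0.280), with means of 4.01 CPM in control and 0 in healthy EVs. Flvcr2 differed by -5.95 (edgeR adjusted p = 0.237), with means of 0 and 1.43 CPM. Bmp6 had the list's lowest unadjusted edgeR p then, at 165 ± 104 against 25.5 ± 1.39 CPM (log2 difference 2.70, SE 0.68, edgeR adjusted p = 0.0594). Cd163, the macrophage receptor for hemoglobin bound to haptoglobin, was at 0, 0 and 1.69 CPM in healthy brain EVs and between 36.6 and 66.1 CPM in control EVs at 4 days (log2 difference 6.20, SE 1.87, edgeR adjusted p = 0.119). It was at 0 in all 3 control libraries at 10 days, including the one with the most ferritin, and between 8.67 and 12.0 CPM at 31 days.

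In plasma the called genes of the list belonged to heme synthesis. Alas2, the erythroid enzyme that starts heme synthesis and also one of the red cell markers, was at 504 to 1297 CPM in healthy and 72.6 to 112 CPM in control EVs at 4 days (log2 difference -3.31, SE 0.54, edgeR adjusted p = 0.0164). It was at 2701 to 3010.1 CPM at 10 days and 1075 to 2631 CPM at 31 days, which was 4.96 and 4.26 above 4 days on the log2 scale (edgeR adjusted p = 0.000272 and 0.00149). Fech, which inserts iron into the ring to make heme, was 144 to 302 CPM in healthy EVs, 23.7 to 65.0 CPM in control at 4 days, 765 to 1249 CPM at 10 days and 193 to 578 CPM at 31 days. Against 4 days it rose by 4.63 at 10 days and 3.25 at 31 days (log2, edgeR adjusted p = 0.000272 and 0.00734). Hamp, the gene of the hormone hepcidin that removes ferroportin from the cell surface, was at 0 in the hNSCs group at 31 days against a control mean of 49.5 CPM (edgeR adjusted p = 0.460).

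Genes whose levels most resembled those of a member across libraries were found by Pearson r of log2 CPM over the 21 libraries of a tissue, which share depth and composition. In brain, Fth1 was most like Ctsb (r = 0.95), a lysosomal protease, then Ftl1 (0.95) and Pabpc1 (0.94), and Ftl1 was most like Eef1g (0.95), Fth1 and Ucp2 (0.94). Hmox1 was most like Ucp2 (0.94), Serbp1 (0.91) and Ftl1 (0.91), and Tf like Rps3 (0.90), Ybx1 (0.89) and Erp29 (0.88). In plasma, Ncoa4 was most like Ybx3 (0.98), LOC103694857 (0.98) and Car2 (0.98), a carbonic anhydrase of red cells. Fth1 there was most like LOC100912228 (0.97), Pdlim1 (0.97) and Clec1b (0.97), a platelet receptor. The likeness was weaker for plasma Ftl1, led by Plekhj1 (0.89), Eif2ak1 (0.80), the heme-regulated kinase of red cell precursors, and Cdyl (0.80), and for Tfrc, led by Herc2 (0.83), Glg1 (0.77) and Myo1e (0.76).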

How the data were processed

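The authors trimmed adapters, aligned reads of stranded total RNA libraries with Bowtie2 and assembled transcripts with StringTie, per the study's methods and the labels (rat build Rnor_6.0). How reads were assigned to genes and the strand setting are not given in the sources used here. The deposited table holds raw counts per gene and FPKM values made by the authors, for 18782 annotated and 7855 new genes. The labels name both plasma and serum for the blood samples. Groups came from the labels, which name no batch.

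Counts were tested in edgeR 4.0.16 (R 4.3.3; TMM factors, filterByExpr, quasi-likelihood test), with the 7 groups of a tissue in 1 model. A call needed more than 1.5-fold change and p under 0.05 after Benjamini-Hochberg adjustment. Alternatives used DESeq2 1.42.0 and limma 3.58.1 on log2(FPKM + 1), so fold changes of low genes are understated there. Permutation tests used numpy 2.4.6, ranks scipy 1.17.1 and figures matplotlib 3.10.9. Scripts were tested on simulated data. All tests are two-sided. Each library is 1 rat, and p-values measure the spread between these rats.

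All 9 members were named. From the fixed pathway list the called genes were named, with only some of those at the largest fitted differences or the lowest p in a comparison. The 3 most similar genes were named for each of 8 member and tissue pairs. Members, lists and tests were chosen with earlier results of these data known. The fits over all control days, between control days and of the ferritin ratio were added after values were seen. No genome coordinates or sequences are given, because the reference used here is of another build.

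Same-numbered brain libraries of different groups had a median correlation of deviations from group means of -0.011 (0.012 for other pairs), and plasma libraries -0.006 (0.005), so numbers did not pair rats. Brain and plasma of 1 rat were paired by animal.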

Additional observations from a re-analysis of the deposited data

How the results depend on the processing

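The counts of members called moved with the test, the filter and the groups fitted. Where DESeq2 or limma on log2(FPKM + 1) called a member within a tissue, its number of called genes is given with the totals. For the other settings only members are given. For brain control against healthy at 4 days (0 by edgeR with all groups) DESeq2 gave 4, no filter 3, the fit with a replicate block 2 (Ftl1 and Hmox1), limma 4, limma with a pseudocount of 0.1 3, and the 2 groups alone 5. At 10 days (2) DESeq2 gave 4, the replicate block 1, leaving out hemoglobin genes 1, adding the new genes 1, limma 0 with each of its 3 settings, and the 2 groups alone 0. Leaving out 1 library gave 0 to 3, and 0 without replicate 2 of the control group or without any 1 healthy library. At 31 days (0) limma gave 4 among 4170 called genes, 4 with the pseudocount of 0.1 and 6 with no filter. FPKM sums over annotated genes were 4251.49 to 11922.3 in healthy brain libraries and 22837.5 to 45837.9 in control brain libraries at 31 days. The part of that scale in the limma counts was not tested. Over all control days (0) DESeq2 gave 4, no filter 1, limma 4 and 4 with the pseudocount of 0.1, and leaving out 1 library 0 to 3, the highest without replicate 1 of the control group at 10 days. DESeq2 gave 1 for brain hNSCs against control at 10 days, and the 2 groups alone 1 for brain control at 31 against 4 days. In plasma DESeq2 gave 1 for control against healthy at 4 and at 10 days, 3 for hNSCs against control at 31 days, 1 for control at 31 against 4 days (as did RLE factors), and 1 for the change of the hNSCs difference from 4 to 31 and from 10 to 31 days. Healthy brain against plasma kept 5 to 7 members when 1 library was left out, 5 when paired by rat, and 8 with DESeq2. The cause was not tested in any of these. The fitted direction turned in 2 values, both without replicate 2 of the brain control group at 10 days: the Ftl1 difference between hNSCs and control at 10 days became 0.42, and its change from 10 to 31 days -0.39. With other libraries left out in turn these values went as far as -3.34 and 3.37, each without replicate 2 of the hNSCs group at 10 days. The log2 ferritin ratio difference ran from 1.09 to 1.66 with 1 library left out. The replicate block, whose numbers did not pair rats, changed no other count of members beyond 1.5 times. Low counts limit Hmox1, Cp and Slc11a2, which were at 0 in 1, 2 and 3 brain libraries, and Hmox1 and Slc11a2 in 2 and 8 plasma libraries.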
